A study of Mus musculus with 10 samples.

Results

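The genes described here encode the classical axon guidance cues and the receptors that read them: semaphorins with plexins and neuropilins, ephrins with Eph receptors, Slits with Robos, and netrins with Dcc and Unc5 receptors. They were chosen by symbol among mouse protein-coding genes on chromosomes 1 to 19: names starting Sema, Plxn, Epha, Ephb, Efna, Efnb, Slit, Robo, Ntn or Unc5 and followed by a number or a letter, plus Dcc, Nrp1 and Nrp2. Slitrk genes, Unc50 and Unc5cl were not taken, and Efnb1, Plxna3 and Plxnb3 lie on the X chromosome, outside the rule. This gave 68 of 20665 genes: 20 semaphorins, 7 plexins, 2 neuropilins, 9 EphA and 5 EphB receptors, 5 ephrin-A and 2 ephrin-B genes, 3 Slits, 4 Robos, 6 netrins (the netrin-G genes Ntng1 and Ntng2 included) and 5 netrin receptors.

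A growing axon steers by such cues, which attract or repel its growth cone through the receptors on its surface. In the retina they take the axons of ganglion cells across the retina to the optic disc, into the optic nerve and over the optic chiasm. Graded EphA and ephrin-A proteins along the nasal to temporal axis, and EphB and ephrin-B proteins along the dorsal to ventral axis, give each axon its address in the visual map of the brain. Slits, semaphorins and netrins are also read by blood vessels, progenitors and the processes of amacrine and bipolar cells, so a peak at one of these genes is not tied to the ganglion cell.

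Chromatin was profiled in C57BL/6 mouse retina after removal of Casz1, a zinc finger protein that retinal progenitors make, and in controls. For ATAC-seq, which reads open DNA by where Tn5 transposase inserts, explants of the age given as postnatal day 2 were transfected with a GFP plasmid (2 control libraries, genotype wild type) or with GFP and Cre (2 Casz1 conditional knockout, cKO, libraries), and 50000 viable GFP-positive cells per library were sorted after 2 days ex vivo. Chromatin immunoprecipitation (ChIP-seq) was done on dissected retina of postnatal day 0, with 1 wild-type control and 1 Casz1 cKO library for H3K27ac, an acetyl mark found on active promoters and enhancers, with 1 of each for H3K27me3, the methyl mark of Polycomb repression. The cKO tissue for ChIP was peripheral retina picked by its fluorescence. The sources used here do not give the Cre driver of that tissue, the number of animals pooled or the place from which control tissue was cut. Genotype and the piece of retina taken therefore cannot be told apart for the histone marks.

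Each library is known only by its list of called peaks, without heights or read counts, so depth is unknown and Casz1 deletion itself was not checked here. On chromosomes 1 to 19 the ATAC lists differed several-fold in length, from 39636 peaks over 11.6 Mb (control 1) and 59574 over 19.6 Mb (cKO 2) to 91931 over 51.6 Mb (cKO 1) and 108569 over 59.8 Mb (control 2). Covered length was 54.4 Mb (control) and 50.7 Mb (cKO) for H3K27ac and 71.6 and 70.2 Mb for H3K27me3. The retinal regulators Pax6, Rax, Six3 and Lhx2 carried an H3K27ac peak at their start in both genotypes, while 8 liver and muscle genes summed to 2396 bp of H3K27ac in control and 2619 bp in cKO. Pou4f2, a defining gene of ganglion cells, had no H3K27ac peak in its window in either genotype, although 11 of 12 ganglion cell genes had one.

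Each gene was described by 2 measures. The gene start was called marked when a peak lay within 1 kb of a start listed in a RefSeq promoter table, which covered 58 members; for the other 10 (Dcc, Efnb3, Ntn1, Plxna1, Plxna4, Sema3b, Sema3f, Sema6a, Slit1 and Unc5d) either annotated end was accepted. The covered bases were counted over the gene body plus 5 kb on either side, here called the window. Member windows had a median of 74.9 kb (14.6 to 1565 kb), against 27.5 kb over all genes, so levels are compared between genes as the percent of the window covered. Where genes are ordered by the bases they gained or lost, these are not scaled for window length, and long genes can hold more of them. The peaks come from tissue or sorted cells of mixed type, and a mark in few cells cannot be told apart from a weak mark in many.

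The upstream sequences of 10 members are shown because their starts span the states described next. By a rule, they are those with the most H3K27me3 (Unc5a, Robo3) or the most H3K27ac (Robo2, Plxnb2) around the start, and those with the largest loss and gain of covered bases of H3K27ac (Ephb1, Sema4d) and of H3K27me3 (Slit3, Robo1). The table had no entry for Ntn1 or Sema3b, which the rule also took. Unc5c and Efna2 were added after their values were seen. Each is the 150 bases before a start listed in RefSeq (GRCm38.p6), in the direction of transcription, with every CG dinucleotide in capitals. Where a gene has several listed starts, the start with the most covered bases summed over all lists was printed. High coverage of such a stretch was thus favoured by the choice. Robo1, Robo2 and Sema4d are each given at a start the table lists, which lies inside the annotated gene.
Unc5a (chr13:54949261-54949410, plus strand): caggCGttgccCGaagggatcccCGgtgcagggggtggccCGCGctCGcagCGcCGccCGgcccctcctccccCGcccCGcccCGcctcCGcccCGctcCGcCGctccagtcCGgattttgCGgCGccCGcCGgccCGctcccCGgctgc
Robo3 (chr9:37433176-37433325, minus strand): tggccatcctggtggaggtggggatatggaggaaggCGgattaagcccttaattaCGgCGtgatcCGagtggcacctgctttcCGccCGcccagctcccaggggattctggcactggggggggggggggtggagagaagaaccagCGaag
Robo2 (chr16:74411826-74411975, minus strand): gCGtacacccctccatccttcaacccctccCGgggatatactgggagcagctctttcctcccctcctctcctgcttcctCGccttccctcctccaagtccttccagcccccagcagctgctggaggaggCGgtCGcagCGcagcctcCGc
Plxnb2 (chr15:89180789-89180938, minus strand): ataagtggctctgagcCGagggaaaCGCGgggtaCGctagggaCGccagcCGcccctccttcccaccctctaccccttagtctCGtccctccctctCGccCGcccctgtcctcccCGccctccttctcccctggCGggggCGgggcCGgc
Ephb1 (chr9:102354694-102354843, minus strand): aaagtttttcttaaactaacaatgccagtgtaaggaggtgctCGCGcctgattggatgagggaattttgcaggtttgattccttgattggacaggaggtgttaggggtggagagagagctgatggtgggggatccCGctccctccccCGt
Sema4d (chr13:51739447-51739596, minus strand): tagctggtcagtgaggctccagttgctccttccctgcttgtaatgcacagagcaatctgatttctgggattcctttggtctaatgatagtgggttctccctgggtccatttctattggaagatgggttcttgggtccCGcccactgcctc
Slit3 (chr11:35121306-35121455, plus strand): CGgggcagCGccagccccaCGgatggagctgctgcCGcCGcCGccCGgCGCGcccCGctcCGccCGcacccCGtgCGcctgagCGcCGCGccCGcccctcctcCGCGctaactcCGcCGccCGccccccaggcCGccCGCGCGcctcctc
Robo1 (chr16:72662999-72663148, plus strand): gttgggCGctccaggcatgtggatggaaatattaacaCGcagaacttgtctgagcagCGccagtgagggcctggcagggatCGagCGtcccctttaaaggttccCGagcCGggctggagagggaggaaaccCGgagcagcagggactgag
Unc5c (chr3:141465414-141465563, plus strand): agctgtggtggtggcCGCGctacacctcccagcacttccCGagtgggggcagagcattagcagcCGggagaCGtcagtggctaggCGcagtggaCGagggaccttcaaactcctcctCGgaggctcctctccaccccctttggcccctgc
Efna2 (chr10:80179332-80179481, plus strand): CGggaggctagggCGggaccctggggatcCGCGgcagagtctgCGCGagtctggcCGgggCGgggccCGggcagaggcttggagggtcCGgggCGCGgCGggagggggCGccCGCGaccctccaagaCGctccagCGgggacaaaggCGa
The first of these, Unc5a, held 23 CG dinucleotides and was covered whole by H3K27ac and H3K27me3 peaks in both genotypes. Slit3 held 27 and was covered whole by H3K27me3 in both genotypes and by no H3K27ac peak. Robo3 held 7, had H3K27me3 alone, and its stretch has both TAATTA and TAATCC, the core letters of homeodomain and Crx/Otx motifs. Robo2 held 7 and Plxnb2 13, and both printed stretches were covered whole by H3K27ac with no H3K27me3. Both genes have other listed starts with less coverage. The other Plxnb2 promoter (chr15:89173902-89174201) had 258 bp of H3K27ac in control. Sema4d, with 1, was covered by no list, although an H3K27ac peak lay within 1 kb of a listed start of that gene. Further upstream but still inside Sema4d, 33.6 kb from the nearest listed start, an acetylated region (chr13:51790245-51794301) was open in all 4 ATAC lists. It had 3970 bp of H3K27ac in control and 4027 bp in cKO, so the printed stretch does not stand for every start of the gene.

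Over all 74 listed promoters of the 58 members (300 bp each), the median GC content was 64.2% and the median number of CG dinucleotides was 20, against 57.0% and 14 over the 20085 promoters of all genes. Member promoters with both marks had a median of 23 CG dinucleotides, those with H3K27ac alone 23, the 8 with H3K27me3 alone 14, and the 10 with neither mark 3. In the same order the medians over all promoters were 22, 22, 10 and 3, so this pattern is not particular to guidance genes. On either strand, TAATTA was found in 4.05% of member promoters (4.48% of all), TAATCC in 2.7% (6.42%), the E-box CANNTG in 51.4% (68.7%) and its form CACGTG, which is contained in CANNTG, in 6.76% (7.89%). These are matches of letters in a 300 bp window and not binding sites.

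In control retina most guidance genes were marked at the start, and 36 of the 68 by both marks. An H3K27ac peak lay at the start of 62 of 68 members (91.2%, against 63.0% of all genes) and an H3K27me3 peak at 41 (60.3%, against 26.9%). Both marks were present at 36 starts (52.9%, against 17.5%), H3K27ac alone at 26 (38.2%, against 45.5%), H3K27me3 alone at 5 (7.35%, against 9.36%) and neither at 1 (1.47%, against 27.6%). Among the 58 members with a listed start alone, both marks were found at 32 (55.2%, against 16.5% of the 16457 genes with one). The listed starts of a gene were pooled, so the 2 marks can lie at different starts. Within the 300 bp promoters taken singly, 19 of 74 had both marks (25.7%, against 7.84% of all promoters). In 42 members (61.8%, against 20.3% of all genes) peaks of the 2 marks shared bases somewhere in the window. Member windows are longer than those of all genes, and the part of window length in this share was not tested. Whether both marks sat on the same chromatin or in different cells cannot be told apart.

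**Figure D1:**
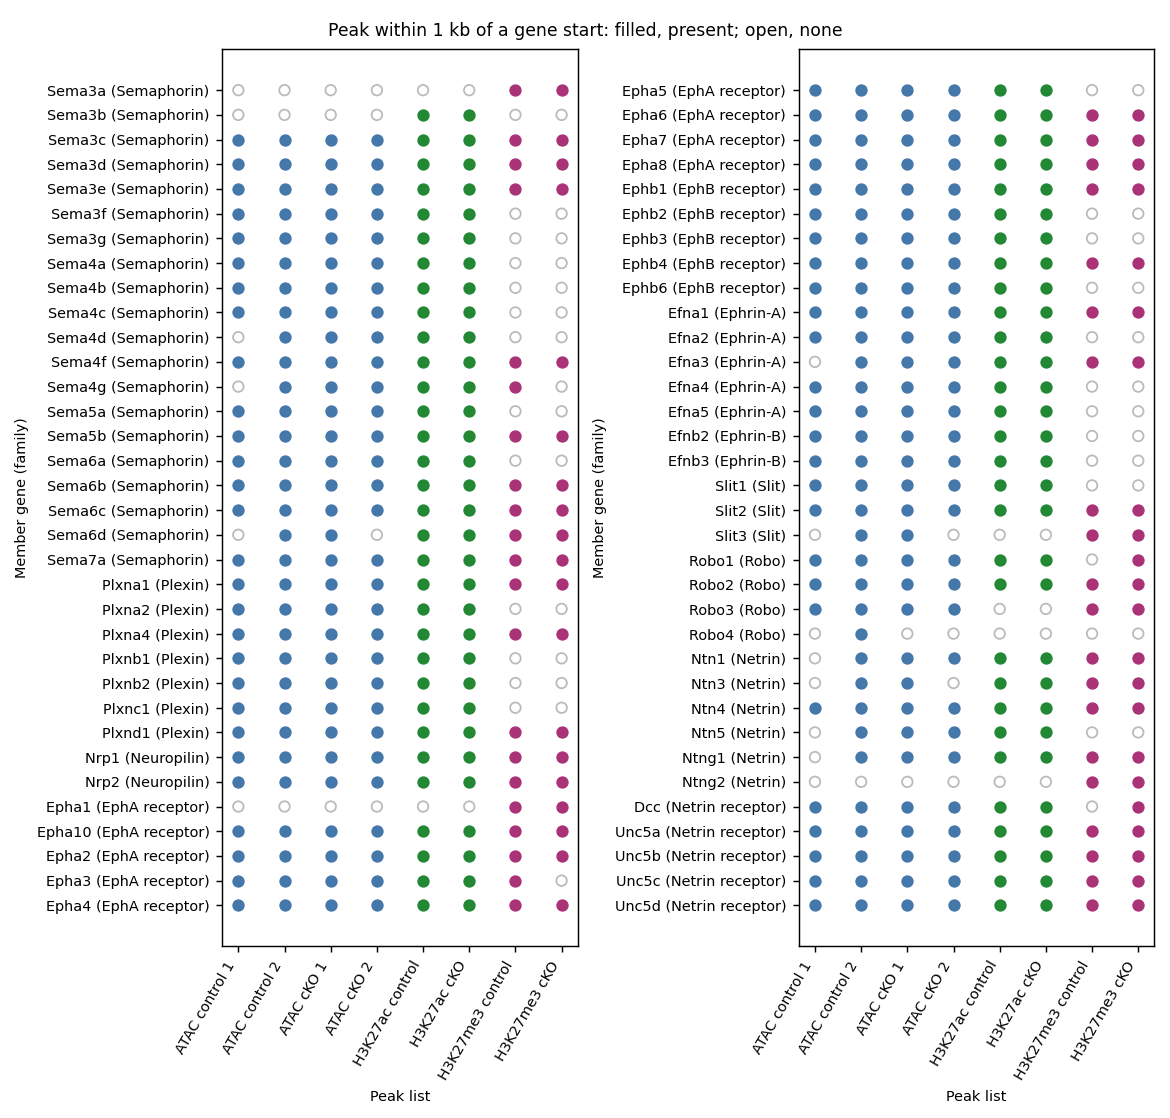
Presence (filled) or absence (open) of a peak within 1 kb of a gene start for each of the 68 members (rows, by family) in the 8 peak lists (columns: ATAC blue, H3K27ac green, H3K27me3 purple). H3K27ac is filled for 62 members in both genotypes, H3K27me3 for 41 in each.

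State was then read family by family. H3K27ac without H3K27me3 marked the starts of the class 4 semaphorins Sema4a, Sema4b, Sema4c and Sema4d, of Sema3b, Sema3f, Sema3g, Sema5a and Sema6a, and of the plexins Plxna2, Plxnb1, Plxnb2 and Plxnc1. It also marked Epha5, Ephb2, Ephb3, Ephb6, Efna2, Efna4, Efna5, both ephrin-B genes Efnb2 and Efnb3, Slit1, Robo1, Ntn5 and Dcc. Both marks were found at 10 of 20 semaphorins (Sema3c, Sema3d, Sema3e, Sema4f, Sema4g, Sema5b, Sema6b, Sema6c, Sema6d and Sema7a), at the plexins Plxna1, Plxna4 and Plxnd1 and at both neuropilins, the coreceptors of class 3 semaphorins and of VEGF. They were also found at 7 of 9 EphA receptors (Epha2, Epha3, Epha4, Epha6, Epha7, Epha8 and Epha10), at Ephb1, Ephb4, Efna1, Efna3, Slit2 and Robo2, at 4 of 6 netrins (Ntn1, Ntn3, Ntn4 and Ntng1) and at all 4 Unc5 receptors. In Robo2 the 300 bp promoters at chr16:74411776-74412075 and chr16:75092721-75093020 had H3K27ac alone. Its promoter at chr16:75447244-75447543 had H3K27me3 alone. The 5 starts with H3K27me3 alone were Epha1, Ntng2, Robo3, Sema3a and Slit3. For Sema3a the promoter table lacks some starts, and the call rests on a peak within 1 kb of the start it lists. The 300 bp promoter there (chr5:13396534-13396833) had 0 bp of H3K27me3 in control and 241 bp in cKO. Robo4, a Robo of blood vessels, had neither mark.

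**Figure D2:**
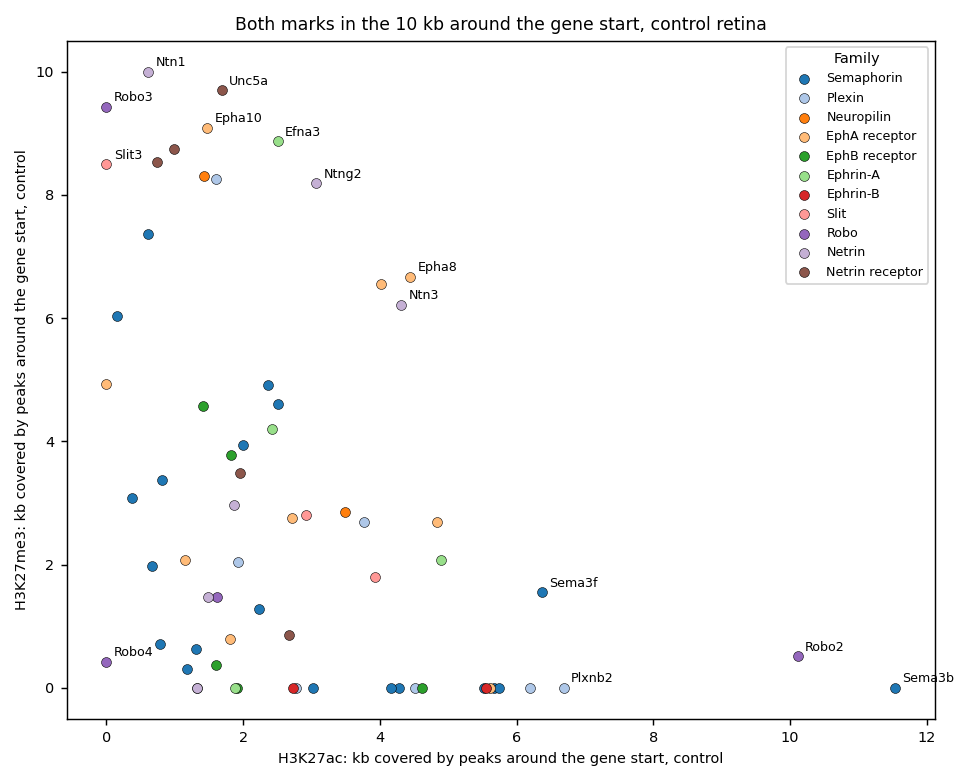
Kilobases covered by H3K27ac peaks (x axis) and H3K27me3 peaks (y axis) in the 10 kb around each gene start (more where a gene has several listed starts), 1 control library per mark; each point is a member, coloured by family. Ntn1, Unc5a and Robo3 sit at the top with little H3K27ac, and Sema3b and Robo2 at the right with little or no H3K27me3.

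The widest H3K27me3 peaks lay on Slit3 and Ntn1. H3K27me3 on Slit3, a secreted repellent, took 187419 bp of the control list (31.4% of the window) and 177845 bp of the cKO list, with the single widest peak of any member, 31546 bp in control and 32055 bp in cKO. That peak lay inside the gene, at chr11:35443848-35475393, and not at the start. Ntn1, which encodes the secreted cue netrin 1, had 39606 bp in its window in control and 39889 bp in cKO. A peak of 27146 bp in control and 26406 bp in cKO lay over an annotated end of the gene. That peak reached past the edge of the window, so only part of it is counted in those bases. The Dcc receptor gene held 17761 bp in control and 17604 bp in cKO, mostly a peak of 14982 bp inside the gene (14329 bp in cKO), away from the acetylated end of the gene. As a share of the window, H3K27me3 was highest on Efna3 (51.9% in control, 53.1% in cKO), Epha10 (49.1% and 50.7%) and Robo3 (45.4% and 44.5%). Robo3 encodes the divergent Robo of crossing commissural axons, and Epha10 an Eph receptor without kinase activity. In each of these genes control and cKO differed little beside the size of the domain.

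H3K27ac covered the largest share on Sema3b, a secreted class 3 semaphorin, with 57.4% of its window covered in control and 46.9% in cKO. Its window holds 3 other protein-coding genes, so the peaks are not those of Sema3b alone. Epha8 was the most acetylated Eph receptor (38.3% in control, 38.6% in cKO), and also had 37.2% under H3K27me3 in control and 34.8% in cKO. The peaks of both marks shared 7773 bp there in control and 6596 bp in cKO. H3K27ac on Ephb2, a receptor of the ventral retina in the visual map, took 38200 bp (control) and 36914 bp (cKO), in 53 and 60 peaks. Merged over both genotypes these gave 70 regions, of which 36 were called in both. Plxnd1 was the most acetylated plexin (19.9% and 20.5%), and Unc5a the most acetylated netrin receptor, with 13476 and 13707 bp. At the other end Robo3 and Robo4 had no H3K27ac peak in their windows in either genotype, and Sema3d had 0.175% and 0.229%.

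Within each remaining family, the extremes of the share covered by H3K27ac in control were as follows. Among EphA receptors the lowest was Epha6 (0.432% in control, 0.350% in cKO), and among EphB receptors Ephb2 was highest (19.2% and 18.6%) and Ephb1 lowest (4.17% and 3.16%). Ephrin-A genes ran from Efna5 (4.63% and 3.78%) to Efna2 (28.4% and 18.5%). Efna2 thus had both the densest H3K27ac of its family in control and the largest difference between genotypes. Of the ephrin-B genes, Efnb2 had 17.4% and 15.7%, above Efnb3. Netrins ran from Ntn1 (0.644% and 0.531%) to Ntn3 (29.5% and 26.3%), and netrin receptors were lowest at Unc5d (0.343% and 0.184%). The coreceptor Nrp1 had 5.59% and 4.48% and Nrp2 had 2.09% and 1.60%, which was the reverse of their order for H3K27me3. Among Slits, Slit1 had 8.25% and 6.56% and Slit2 1.04% and 1.13%, Plxna4 was the lowest plexin (1.495% and 1.60%), and Robo2 the highest Robo (2.04% and 1.77%). For H3K27me3 the highest members of the families not yet given were Sema6b (43.8% and 48.0%), Ntn3 (39.96% and 35.5%), Unc5a (21.1% and 19.7%), Ephb4 (14.8% and 11.7%), Nrp2 (11.7% and 13.7%) and Plxnd1 (5.32% and 5.51%). In each family with the mark, the lowest member that had any in control was Robo2 (0.0328% and 0.0480%), Sema3e (0.295% and 0.396%), Epha6 (0.361% and 0.303%), Ntng1 (0.387% and 0.378%), Ephb2 (1.27% and 0.398%), Dcc (1.60% and 1.59%), Plxnb2 (1.72% and 1.35%), Nrp1 (1.88% and 1.15%), Slit2 (2.44% and 2.87%) or Efna5 (3.17% and 3.88%). Epha5, Efna2, Efnb2, Efnb3, Plxna2, Plxnb1, Plxnc1, Ephb6, Sema3b, Sema4c, Sema4d, Sema5a and Sema6a had no H3K27me3 in control.

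Comparing cKO with control, the state of the start was the same in 64 of 68 members. No member gained or lost an H3K27ac peak at the start (1.11% of all genes had one in cKO alone and 1.24% in control alone). For H3K27me3, Dcc and Robo1 had a start peak in cKO alone (background 1.83%), and Epha3 and Sema4g, an Eph receptor and a class 4 semaphorin, in control alone (background 2.08%). These changes were small in bases. Within 5 kb of the start, H3K27me3 at Dcc was 848 bp in control and 1175 bp in cKO, and at Epha3 794 and 210 bp. Robo1 had 1472 and 2489 bp, and Sema4g had 297 and 0 bp. The 4 members are a share near that of all genes in each direction, 2.94% for either.

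Covered bases were compared between genotypes with 1 library each, so the values carry no test. A gene was counted as lower or higher when the window differed by at least 1.5-fold with at least 1000 bp in the larger list. For H3K27ac 5 members were lower in cKO, 7.35% of members against a background of 1.81% of all genes. Counted only among genes with at least 1000 bp in 1 of the lists, the shares were 8.06% and 2.94%. None was higher (background 0.692%, or 1.12% among genes with at least 1000 bp). In smaller steps, 45 of the 66 members with H3K27ac had fewer covered bases in cKO (68.2%, against 63.1% of all marked genes), with a median log2 ratio of -0.12 against -0.07 over all genes. The whole list was shorter in cKO by a log2 ratio of -0.10, and after division by the list totals 35 of 66 members were fewer. Of all marked genes, 6459 of 15309 were then fewer. The medians after this division were -0.02 for members and 0.04 over all genes. The family sums were within 0.03 of that list-wide ratio for semaphorins (-0.12), EphA (-0.12) and EphB (-0.13) receptors, ephrin-B genes (-0.13) and netrins (-0.12). They lay further below it for ephrin-A genes (-0.27), Robos (-0.23), neuropilins (-0.34) and Slits (-0.35), and above it for plexins (-0.01) and netrin receptors (0.08).

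**Figure D3:**
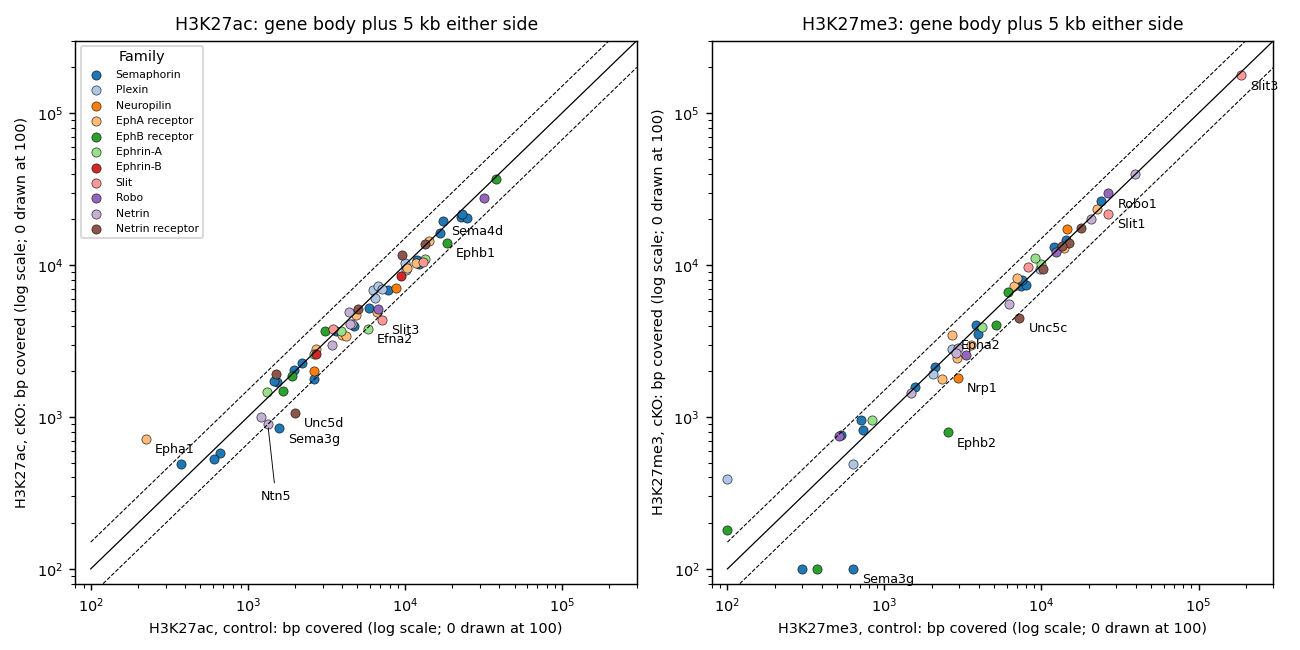
Bases covered in the window of each member in control (x axis) and cKO (y axis), on log scales, for H3K27ac (left) and H3K27me3 (right), 1 library each; the solid line is equality, dashed lines 1.5-fold, and values of 0 are drawn at 100. Most members lie between the dashed lines; Efna2, Ntn5, Unc5d, Slit3 and Sema3g fall below them for H3K27ac and Unc5c, Nrp1 and Ephb2 for H3K27me3. Points outside the lines with under 1000 bp in both lists, such as Epha1 for H3K27ac and Sema3g for H3K27me3, were not counted.

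Efna2 encodes ephrin-A2, a ligand of the nasal to temporal map. Its H3K27ac peaks covered 5825 bp in control and 3802 bp in cKO, 1.53-fold lower in cKO. All 5 of its acetylated regions had fewer bases in cKO, and the peak at the start went from 1295 to 1070 bp. One of them, past the end of the gene (chr10:80192024-80192255), was called in control alone, with 232 and 0 bp. The largest difference lay at 9.26 kb from the start, at chr10:80188743-80191725 (mm10), across the far end of the gene, with 2983 bp in control and 2058 bp in cKO. The window holds 1 other protein-coding gene. The ATAC lists covered 1078 bp (control 1), 2697 bp (control 2), 2701 bp (cKO 1) and 1497 bp (cKO 2), so open chromatin overlapped between genotypes. Efna2 lost the call when values were divided by the list total.

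On Slit3, H3K27ac took 7120 bp in control and 4379 bp in cKO, 1.63-fold lower. None of it lay within 5 kb of the Polycomb-marked start. The 2 largest differences were at 384 kb from the start (chr11:35505055-35506667, 1613 and 880 bp) and at 390 kb (chr11:35511663-35514527, 2865 and 2043 bp). The first overlapped the end of an H3K27me3 region (chr11:35491744-35505924), and the second was called open in all 4 ATAC lists.

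Unc5d, a repulsive netrin receptor gene, had 1997 bp of H3K27ac (control) and 1070 bp (cKO), 1.87-fold lower. It also had 10255 and 9388 bp of H3K27me3, mostly within 5 kb of its ends (8744 and 8380 bp). Sema3g, a class 3 semaphorin of vessels, had 1581 and 845 bp of H3K27ac, also 1.87-fold lower. Each of its 4 regions had fewer bases in cKO, and 1 was called in control alone. Only the region at chr14:31217912-31218518 (607 and 364 bp) lay inside the gene. Sema3g lost the call when the gene body alone was counted. Its H3K27me3 was 632 bp in control and 0 in cKO, under the 1000 bp minimum. Ntn5, a short netrin-like gene, had 1343 and 895 bp of H3K27ac, 1.501-fold lower. Ntn5 lost the call when divided by the list total and when the gene body alone was counted. With a fold of 2 no member was lower in H3K27ac. The nearest member not counted was Sema6b, with 2637 and 1768 bp, 1.49-fold lower.

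Vessel markers were read in the same libraries as Sema3g and Slit3. Of 12 vessel genes, 9 had H3K27ac and 8 of these had fewer bases in cKO (63.1% of all marked genes had fewer). Their sums were 44947 bp in control and 36981 bp in cKO, of which Kdr alone had 17199 and 13722 bp. The defining genes Rgs5, Tie1 and Esam were at 0 in both and Tek in cKO. Microglia genes summed to 1698 and 1191 bp. The part of vessel cells in the lower values was not tested.

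For H3K27me3 3 members were lower in cKO (4.41%, background 2.02%; among genes with at least 1000 bp, 6.52% of members against 5.44%) and none was higher (background 1.56%, or 4.2% among genes with at least 1000 bp). Of the 57 members with any H3K27me3, 31 had fewer bases and 26 more, and the median log2 ratio was -0.02, as over all genes. The share of members was near that of all genes once only marked genes were counted.

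Unc5c, which encodes a receptor through which netrin 1 repels axons, had 7242 bp of H3K27me3 (control) and 4505 bp (cKO), 1.61-fold lower. Of 11 methylated regions 10 had fewer bases in cKO. Unc5c lost the call when the gene body alone was counted. At the start the peak went from 2512 to 1866 bp (chr3:141465531-141468042), while the H3K27ac peak over the same start (chr3:141464161-141466730) had 1953 bp (control) and 2570 bp (cKO). Over the 10 kb around the start, H3K27ac was 1953 and 3001 bp and H3K27me3 3493 and 2081 bp, so the 2 marks differed in opposite directions there. Over the whole window H3K27ac was 9549 bp in control and 11607 bp in cKO.

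The ATAC lists covered 2779 bp (control 1), 12469 bp (control 2), 10424 bp (cKO 1) and 3663 bp (cKO 2) of the Unc5c window. Per Mb covered in each list this was 239 and 209 bp in control and 202 and 187 bp in cKO, so both cKO libraries lay below both controls. The start itself was called open in every list.

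**Figure D4:**
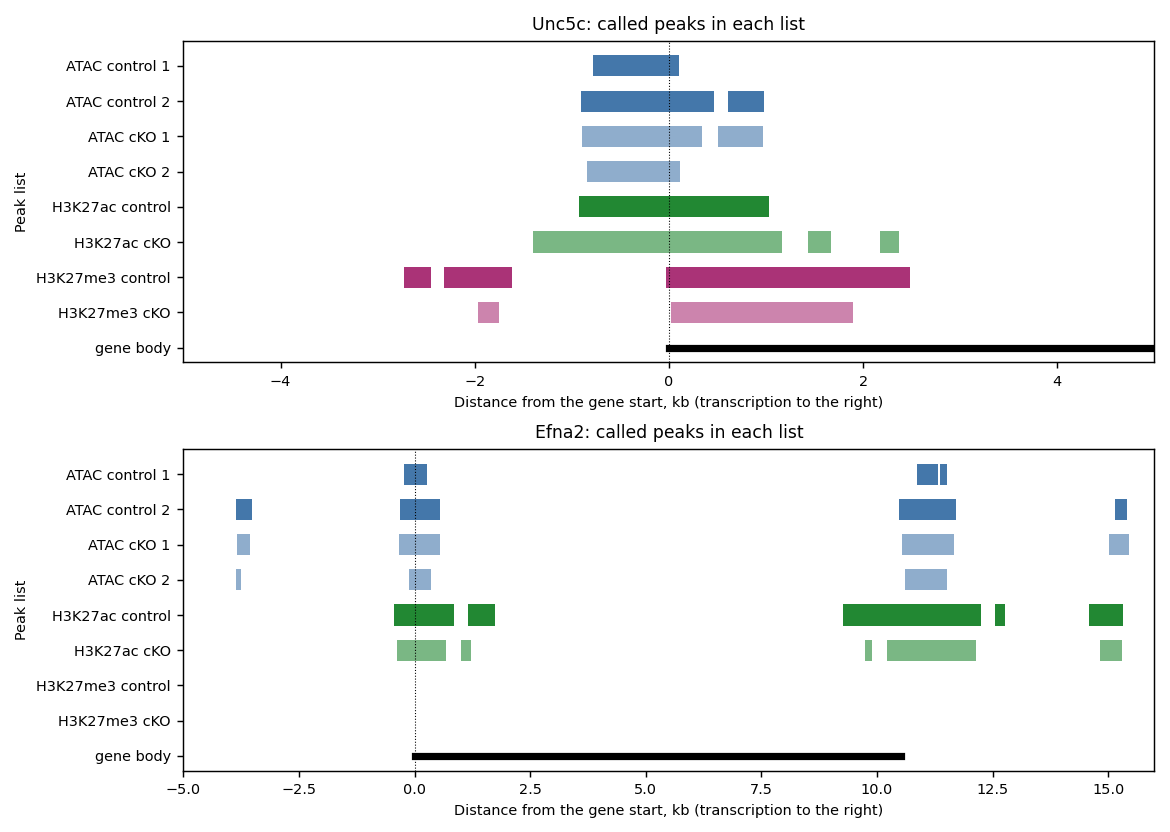
Called peaks around the starts of Unc5c and Efna2 in each of the 8 lists; the x axis is distance from the gene start in kb, the black bar the gene body, darker bars control and paler bars cKO. At Unc5c the H3K27ac peak is wider and the H3K27me3 peaks narrower or absent in cKO. At Efna2 each acetylated region has fewer bases or is absent in cKO, and there is no H3K27me3.

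Nrp1, the semaphorin and VEGF coreceptor, had 2947 bp of H3K27me3 (control) and 1810 bp (cKO), 1.63-fold lower. It had 8776 and 7024 bp of H3K27ac, so both marks were lower. Nrp1 lost the H3K27me3 call when peaks within 500 bp were merged. Ephb2 had 2528 and 792 bp of H3K27me3, 3.19-fold lower, which was the only one of the 3 to remain at a fold of 2. Most of this lay in 1 region inside the gene, at 102 kb from the start (chr4:136732320-136734119), with 1718 bp in control and 409 bp in cKO. It was called open in no ATAC list. The start of Ephb2 had no H3K27me3 in either genotype.

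The members that gained the most bases, again not scaled for window length, stayed within 1.5-fold. Robo1, a Slit receptor, had the largest gain of H3K27me3, 26645 bp (control) and 29651 bp (cKO), with more bases in 32 of its 47 methylated regions. The largest single gain was 968 bp, at 18.7 kb from the listed start (chr16:72681807-72682966, 192 and 1160 bp), and a peak of 536 bp called in cKO alone lay 0.249 kb from that start. Its H3K27ac was 6742 and 5171 bp, so Robo1 had more of the Polycomb mark and less of the active one in cKO. Sema4d, a transmembrane semaphorin that signals through B-class plexins, had the largest gain of H3K27ac, 17392 and 19537 bp, with more bases in 23 of 36 regions and no H3K27me3. Robo2 had 31986 and 27753 bp of H3K27ac, and Sema5b 24799 and 20406 bp, the largest losses after that of Ephb1. Slit1, the main Slit of ganglion cell axon paths together with Slit2, had 13152 and 10459 bp of H3K27ac and 26657 and 21811 bp of H3K27me3, both lower. Slit2 had 3493 and 3813 bp of H3K27ac and 8224 and 9645 bp of H3K27me3, both higher.

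The directions of the 2 marks were then set side by side. Among the 50 members with both marks in both genotypes, 15 had fewer H3K27ac and more H3K27me3 bases in cKO (30.0%, against 30.5% of all such genes), 17 fewer of both (34%, 33.6%), 9 more H3K27ac and fewer H3K27me3 (18%, 19.6%) and 9 more of both (18%, 15.8%). These shares were close to those of all genes.

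The Eph receptors and ephrins of the visual map were examined one by one. On the nasal to temporal axis, the receptor gene Epha5 had 10378 bp of H3K27ac (control) and 9571 bp (cKO), and Epha6 had 4230 and 3428 bp. Epha4 had 6650 and 4907 bp of H3K27ac, with 6958 and 8169 bp of H3K27me3. Their values in cKO were lower for H3K27ac in each case, by less than 1.5-fold. The ligand gene Efna5 had 13357 and 10887 bp of H3K27ac and 9151 and 11195 bp of H3K27me3, again with the 2 marks in opposite directions. Efna1 had 3904 and 3699 bp of H3K27ac, Efna3 2636 and 2609 bp and Efna4 1320 and 1457 bp. Epha3 had 4921 and 4728 bp, Epha7 2712 and 2802 bp and Epha8 14337 and 14463 bp. Epha7 and Epha8 thus differed by little between genotypes. Epha2 had 11726 and 10396 bp, Epha10 3981 and 3482 bp and Epha1 225 and 720 bp, the last under the 1000 bp minimum.

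On the dorsal to ventral axis, Ephb1, which acts at the optic chiasm, lost the most H3K27ac bases among the members, not scaled for window length, 18457 bp in control and 14002 bp in cKO, over 43 regions of which 26 had fewer bases in cKO. Its listed promoter, printed above, was open over all 150 bases in all 4 ATAC lists, with 94 bases under H3K27ac in control and 2 in cKO. Ephb3 had 3111 and 3698 bp, Ephb4 1670 and 1490 bp and Ephb6 1905 and 1856 bp. The dorsal ligand gene Efnb2 had 9405 and 8464 bp and Efnb3 2732 and 2611 bp, neither with any H3K27me3. No ephrin-B gene was counted as changed.

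Markers of retinal position were read in the same H3K27ac libraries. There the whole list was shorter in cKO by a log2 ratio of -0.10, and 63.1% of all marked genes had fewer bases. All 5 dorsal genes had fewer bases in cKO, with sums of 42106 bp in control and 33395 bp in cKO, and Tbx5 and Aldh1a1 passed 1.5-fold. The 4 ventral genes summed to 16143 and 15391 bp, the 4 nasal genes to 16592 and 15892 bp, and the temporal gene Foxd1 had 4422 and 3196 bp. Of 5 genes of the retinal periphery, the region from which the cKO tissue was taken, 3 had H3K27ac and all 3 had fewer bases in cKO, with sums of 20301 bp (control) and 17869 bp (cKO), while Wls and Msx1 were at 0 in both. The 3 genes of the central band (Cyp26a1, Cyp26c1 and Fgf8) also had fewer bases, with sums of 7240 and 5539 bp and a median log2 ratio of -0.41. None of the 5 dorsal genes was at 0 in either genotype. The part of retinal position in the values of the ephrin and Eph genes was not tested.

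Other guidance genes gave the following values. Of 25 further cues and receptors, such as Neo1, Boc, Alcam, Celsr3 and Dscam, 18 had fewer and 7 more H3K27ac bases in cKO. Of all marked genes 63.1% had fewer. In these cues and receptors 2 (Rtn4r, a Nogo receptor, and the adhesion molecule Alcam) were lower by 1.5-fold and none higher (background 1.81% and 0.692% of all genes). For H3K27me3, 11 had fewer and 9 more, none was lower by 1.5-fold, and Lrrc4c, a netrin-G ligand gene, was higher (background 2.02% and 1.56%). Of 40 cytoplasmic effectors, such as Rac1, Fyn, Dpysl2 and Nck1, 26 had fewer and 14 more H3K27ac bases and none was counted in either direction, beside the same background. Their H3K27ac medians were -0.11 for the cues and -0.05 for the effectors, on the log2 scale. Of the 26 effectors with H3K27me3, 13 had fewer and 13 more bases, with 2 lower and 2 higher by 1.5-fold (Nck2, Vav2, Trio and Dpysl3), beside the same background as for the cues.

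Open chromatin in the explants was seen at most guidance gene starts. A start peak was called for 54 members in control 1, 64 in control 2, 63 in cKO 1 and 60 in cKO 2 (58.0%, 69.8%, 68.8% and 62.8% of all genes). The numbers were lower in the 2 short lists of either genotype. Ntng2, Epha1, Sema3a and Sema3b had no start peak in any list, at the listed starts or, for Sema3b, at the annotated ends.

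The 4 ATAC lists had 973 merged regions in member windows. Of these 269 were called in all 4 lists (27.6%, against 28.2% of all 116381 regions) and 181 were also under H3K27ac in both genotypes (18.6%, against 18.9%). Polycomb-marked open regions (all 4 ATAC lists, H3K27me3 in both genotypes) numbered 64 (6.58%, against 3.88%). Regions called in both cKO libraries and neither control numbered 3 (background 0.273% of all regions, 0.308% of those of members), and in both controls and neither cKO none (background 0.125%).

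The 3 cKO-only regions lay inside Epha3 at 213 kb from its start (chr16:63650834-63651351), inside Robo1 at 343 kb from its listed start (chr16:73005947-73006156) and inside Sema6a, a transmembrane semaphorin without a listed start, at 57.3 kb from the nearer annotated end (chr18:47302594-47302853). Each was narrow: 518 and 200 bp in cKO replicates 1 and 2 at Epha3, 178 and 194 bp at Robo1, and 260 and 110 bp at Sema6a. H3K27me3 covered none of them and H3K27ac only 51 bases of the Sema6a region, in control.

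Per Mb covered in each list, both cKO libraries lay below both controls at 2 members (2.94%, background 2.91%) and above them at 8 (11.8%, background 4.8%). With 2 libraries against 2, the smallest two-sided p of an exact permutation test is 0.333, which each of these 10 members has, so none can pass a threshold. Robo4 was lower, with 18.3 and 18.5 bp per Mb in the controls and 14.8 and 5.61 in the cKO libraries (replicates 1 and 2 in each). The window of Robo4 overlaps that of Robo3. The margins were small for most members that were higher. Plxna2, a receptor of class 3 and class 6 semaphorins, had 135 and 183 in control and 185 and 209 in cKO. Unc5a had 117 and 127 in control and 139 and 149 in cKO, and Epha8 had 113 and 111 in control and 117 and 130 in cKO. Plxna4 had 163 and 232 against 246 and 256, and the groups were separated there by less than the controls differed from each other. Epha1 had 28.2 and 36.1 against 41.4 and 49.6, and Plxnd1 103 and 101 against 107 and 138. Sema3c (29.3 and 28.8 against 29.7 and 35.9) and Unc5d (64.1 and 62.2 against 68.7 and 64.9) completed the 8, and in both the gap between the genotypes was under 1.5-fold. Member windows were longer than those of all genes, and the part of window length in the share of 11.8% was not tested. As listed, without division by the list total, none of the 68 lay outside the other genotype in either direction (0.0823% of all genes lower, 0.131% higher). Leaving out 1 library at a time (control 1, control 2, cKO 1 or cKO 2) gave 26, 30, 20 and 18 members higher and 19, 21, 9 and 13 lower. Of all genes, 40.4%, 19.2%, 13.8% and 16.2% were then higher and 16.5%, 44.1%, 9.69% and 14.7% lower. Each library thus bears on these counts, over all genes as in the members.

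The members that differed in a histone mark overlapped between genotypes in ATAC coverage, apart from Unc5c and Unc5d. In bp per Mb of the list, for controls 1 and 2 and then cKO 1 and 2, Slit3 had 221, 383, 306 and 321. Ephb2 had 325, 312, 315 and 348, and Nrp1 had 96.6, 119, 121 and 106. Of the vessel semaphorin Sema3g 58.2, 35.6, 39.8 and 41.8 were covered, and of Ntn5 21.4, 13.6, 19.3 and 29.7. In these 5 genes a control library lay on each side of a cKO library. The members with a cKO-only region also overlapped over the whole window: Epha3 had 134, 115, 129 and 119, Robo1 269, 409, 416 and 380, and Sema6a 165, 170, 174 and 169. Dcc (62.6, 207, 192 and 109) and Sema4g (24.9, 59.5, 57.0 and 61.1) were lowest in control 1, the shortest list.

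**Figure D5:**
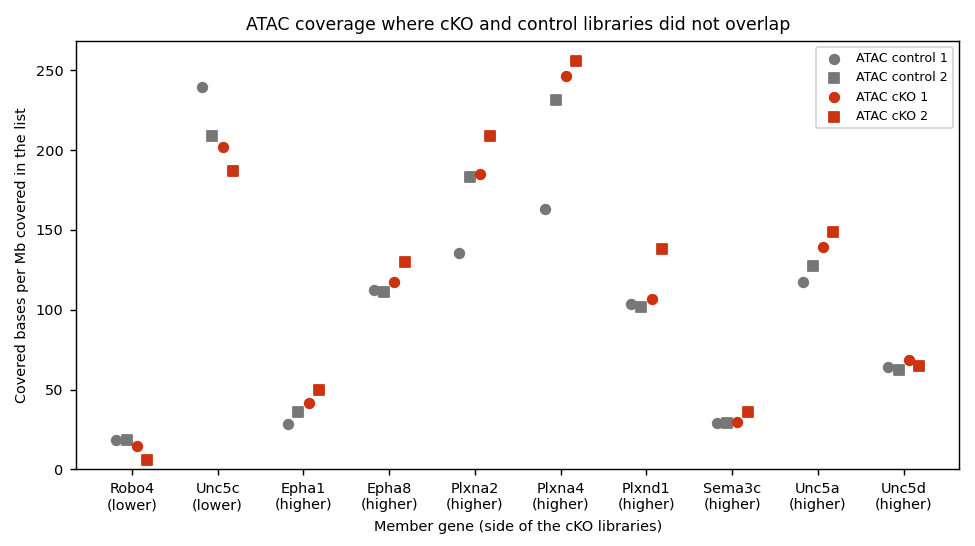
Covered bases per Mb covered in the list (y axis) for the 10 members whose 2 cKO libraries (red) both lay below or above the 2 control libraries (grey), circles for replicate 1 and squares for replicate 2. Robo4 and Unc5c were lower in cKO and the other 8 higher, several by a small margin.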

How the data were processed

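The deposited files give each peak's position and name. The score column is 0 throughout, so the deposited score holds no height or p-value, and the deposited coordinates were the only values used. Per the submitters' processing notes the build was mm10 and the tools were Bowtie2, deepTools and MACS2, all without versions. The sources used here do not give the peak threshold, the peak mode, whether reads were shifted to the Tn5 cut, or the use of input. Narrow peak calls can break broad H3K27me3 domains into pieces. Peak names point to 1 set of aligned reads per list, and peaks were treated as calls of single libraries. The 2 input samples were not analysed here.

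Peaks on chromosomes 1 to 19 were merged within each list and their bases counted with Python 3.11.15, numpy 2.4.6 and pandas 2.3.3 over gene windows taken from RefSeq (GRCm38.p6, which is mm10). ATAC peaks of the 4 lists were merged into union regions (1 bp overlap). The table gives no strand; starts and strands came from a RefSeq promoter table with 16457 of 20665 genes, which can lack starts. Counting was tested on simulated peak lists. ATAC values were bases per Mb of the list. Replicate numbers are in the labels, whose protocols place the repeats on different days without tying a number to a day; libraries with the same number had deviations from their group mean that correlated at -0.80 over 14667 genes, so the numbers were not used as a block. Where separate cultures are not stated, differences between replicates may be technical.

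Members with a 1.5-fold difference, with an ATAC region of 1 genotype or with a changed start, the extremes of each family, and Eph and ephrin genes are named. The members and gene lists were chosen with earlier results of these data known. Some genes of the retina marker list are not reported here. Alternatives covered window, list scaling, peak width and merging, fold, minimum and left-out libraries.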

Additional observations from a re-analysis of the deposited data

How the results depend on the processing

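The start counts (62, 41 and 36 members) stayed within 1.5 times under all 4 alternatives tried for each. In what follows, percents in brackets are the shares of all genes under the same setting. H3K27ac lower (5 members) became 3 with 10 kb flanks (1.84%), 3 in the 10 kb around the start (1.04%) and 3 as a share of the list's covered bases (1.13%). It became 11 at the lower fold tried (7.26%), 0 at a fold of 2 (0.382%) and 2 with a 2000 bp minimum (0.861%). The genes changed as well. Around the start 2 of the 5 were kept and Epha10 was new. With the gene body alone the count stayed at 5 (1.85%), but Ntn5 and Sema3g were lost and Epha6 and Sema3b were new. H3K27ac higher (0) became 1 around the start (0.29%), 1 at the lower fold tried (2.72%) and 1 with a 500 bp minimum (1.24%). H3K27me3 lower (3) became 5 with 10 kb flanks (2.41%), 6 at the lower fold tried (4.45%) and 1 at a fold of 2 (0.837%). With the gene body alone it was 4 (1.04%), where Unc5c was lost and Epha7 and Ephb4 were new. H3K27me3 higher (0) became 2 around the start (1.17%), 1 with peaks within 500 bp merged (2.26%) and 1 at the lower fold tried (3.28%). ATAC higher (8) became 0 as listed (0.131%), 3 as a share of peaks (6.2%) and 5 with lists of equal length (5.52%). In the same order ATAC lower (2) became 0 (0.0823%), 5 (7.2%) and 6 (4.67%). It became 1 with either the gene body alone (3.04%) or 10 kb flanks (3.23%). Leaving out 1 library gave 18 to 30 members higher (13.8% to 40.4%) and 9 to 21 lower (9.69% to 44.1%). The cKO-only regions then numbered 4 to 148, or 0.411% to 18.7% of member regions against 0.31% to 18.6% of all regions. Control-only regions numbered 0 to 198, at most 20.3% of member regions, against 0.334% to 19.4% of all regions. With 10 kb flanks there were 5 cKO-only regions (0.483% of member regions, against 0.273% of all). The causes were not tested. With the labelled numbers as a replicate block, 11 members were higher (6.7%) and 3 lower (4.76%), and the regions stayed at 3 and 0. The pairing crossed, an alternative chosen after seeing the data, gave 19 higher (15.4%) and 11 lower (14.4%).

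Peak lists hold no heights, so a peak near the caller's threshold counts like a strong one, and 32.2% of control and 30.9% of cKO H3K27ac peaks in member windows had no partner in the other genotype. Their median widths were 193 and 161 bp, against 614 and 476 bp for shared peaks. With 1 library per mark and genotype, a difference in covered bases cannot be told apart from a difference in depth.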
